A study of Mus musculus with 2 samples.

Results

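Mpo, Elane, Prtn3, Ctsg and Prss57, 5 of the 32285 genes counted, encode the enzymes packed into the primary (azurophil) granules of neutrophils. They were chosen by their levels and shares of cells in these libraries, across neutrophils, cycling cells and the rest, so those values describe the data and carry no test. Cells sorted as CD45lowCD11b+ from mouse brain were sequenced by droplet 3′ RNA-seq with actinomycin D present during dissociation, which limits transcription in the tube. The wild-type library, Disc1WT/WT, and the library of the homozygous allele labelled Disc1 locus impairment, Disc1LI/LI, each held the pooled brains of 6 male littermates aged 23 weeks. No replicate check is possible with 1 library per genotype, so genotype and library cannot be told apart and no difference between them was tested.

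Primary granules are made once in the life of a neutrophil, in the promyelocyte of the bone marrow, which still divides. Myeloperoxidase (Mpo) makes hypochlorous acid from hydrogen peroxide and chloride, while neutrophil elastase (Elane), proteinase 3 (Prtn3), cathepsin G (Ctsg) and the serine protease Prss57 cut proteins. Later stages shut these genes and fill secondary granules with Ngp, Camp and Ltf instead, and mature neutrophils carry the stored proteins with little of the transcripts. Monocyte precursors pass through a stage with the same primary granule transcripts.

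In mm10, on the GENCODE annotation, Mpo (ENSMUSG00000009350) spans chr11:87793581-87804413 on the plus strand and Ctsg (ENSMUSG00000040314) spans chr14:56099881-56102574 on the minus strand. The other 3 genes are on chromosome 10. Prtn3 (ENSMUSG00000057729) at chr10:79874476-79883174 and Elane (ENSMUSG00000020125) at chr10:79886247-79888215 follow each other on the plus strand with 3072 bases between them, and Prss57 (ENSMUSG00000020323) lies at chr10:79781474-79790961 on the minus strand. RefSeq promoter sequence on GRCm38.p6, from 250 bases before to 50 after the start, was at hand for 4 of the 5 genes and not for Prss57. The letters AGGAAGT, the core of sites bound by the myeloid factor PU.1 and other ETS factors, occurred in all 4. They are shown in capitals with 20 bases on each side, 5′ to 3′ along the gene, because the 4 genes were highest in the same cells:

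Mpo: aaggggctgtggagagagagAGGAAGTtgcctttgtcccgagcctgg

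Elane: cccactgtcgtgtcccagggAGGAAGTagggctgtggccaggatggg

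Prtn3: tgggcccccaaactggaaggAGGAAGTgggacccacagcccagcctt

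Ctsg: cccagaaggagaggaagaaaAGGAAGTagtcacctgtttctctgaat

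These windows are chr11:87793541-87793587 for Mpo, chr10:79886208-79886254 for Elane, chr10:79879553-79879599 for Prtn3 and chr14:56102754-56102800 for Ctsg. The first capital lay 223, 84, 94 and 206 bases upstream of the RefSeq start in that order. GENCODE places the first base of Mpo and of Elane inside its window and that of Prtn3 upstream of it. AGGAAGT on either strand was present in 7.69% of 32851 mouse promoters of the same length. Of the other motifs searched on both strands, AACNG (MYB) was in 4 of the 4 against 74.2% of all promoters, TATAA in 3 against 22.8%, TGTGGT (RUNX) in 1 against 14% and TTGCNNAA (C/EBP) in 0 against 9.56%. The motifs were picked after the sequences were seen, no 2 matches overlapped, and a match is a string of letters and not a site.

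Barcodes were kept as cells if they had at least 200 genes and at most 10% of unique molecular identifiers (UMIs) from mitochondrial genes. This gave 7032 Disc1WT/WT and 7817 Disc1LI/LI cells, with medians of 4234.5 and 4566 UMIs. The labels call the cells microglia, but cells outside the other classes with at least 5 of 10 microglia markers made up 93.7% of Disc1WT/WT and 29.1% of Disc1LI/LI cells. Neutrophils, cells with at least 3% of UMIs from S100a8 and S100a9, made up 1.65% and 46.3%. Between the libraries 12 barcodes were shared, holding 0 and 6 UMIs of the 5 genes. A 3′ UMI counts a transcript once whatever its length, so genes were compared without regard to length. Levels are UMIs per 1000000 UMIs of the named cells (UPM), and intervals in parentheses are exact 95% ranges for counting error only. Disc1 itself had 642 UMIs (19.1 UPM) in Disc1WT/WT and 22 (0.461 UPM) in Disc1LI/LI.

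The 5 genes gave 2084 UMIs in Disc1WT/WT (62.0 UPM) and 188554 in Disc1LI/LI (3954 UPM). Cells were split into cycling cells (not neutrophils, with UMIs of at least 3 of Mki67, Top2a, Cenpf, Birc5, Ube2c, Pbk and Cdk1), granule-making neutrophils (at least 1% of UMIs from Ngp, Camp and Ltf), other neutrophils and the rest. These numbered 52, 50, 66 and 6864 cells in Disc1WT/WT and 410, 1631, 1991 and 3785 in Disc1LI/LI. Cycling cells, 0.739% and 5.24% of the cells, held 79.9% and 51.0% of the summed UMIs of the 5 genes.

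Elane was the most abundant of the genes in Disc1LI/LI, with 5820 UPM (5763 to 5877) in cycling cells, 3343 in other neutrophils, 1094 in granule-making neutrophils and 281 in the rest. In Disc1WT/WT it had 776 UPM in cycling cells, 584 in granule-making neutrophils, 0.279 in the rest and 0 UMIs in other neutrophils, where 3 counts would be 12.5 UPM. Prtn3 had the same order of classes, with 4105 (4058 to 4153), 1973, 661 and 195 UPM in Disc1LI/LI and 939, 4.15, 232 and 0.838 for the same classes in Disc1WT/WT. Thus cycling cells had the highest level of both genes in both libraries, and the other neutrophils stood second in Disc1LI/LI only.

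Mpo, the one peroxidase of the group, reached 1992 UPM (1959 to 2025) in Disc1LI/LI cycling cells, 894 in other neutrophils, 240 in granule-making neutrophils and 101 in the rest. In Disc1WT/WT it had 220 UPM in cycling cells, 21.1 in granule-making neutrophils, 0.0620 in the rest and 0 UMIs in other neutrophils. Ctsg followed the same order in Disc1LI/LI, at 1856, 564, 134 and 84.4 UPM, and had 471, 0 (no UMI), 25.8 and 0.217 UPM in the same classes of Disc1WT/WT. Prss57 was the scarcest, at 75.5 (69.2 to 82.3), 53.7, 27.8 and 4.44 UPM in Disc1LI/LI, and it had 5 UMIs in all in Disc1WT/WT, with 1, 1, 1 and 2 in those classes. The order of the neutrophil classes in Disc1LI/LI rested on few cells. Without cells in which the 5 genes took at least 1% of UMIs, granule-making neutrophils were above other neutrophils. Elane was at 122 and 82.4 UPM, Prtn3 at 90.5 and 49.2, and Mpo at 12.2 and 10.0. Ctsg was at 13.3 and 7.62 and Prss57 at 12.7 and 1.59. Between cycling cells and the rest, 4 of the 4 genes with at least 10 UMIs were past 4-fold higher in Disc1WT/WT and 5 of 5 in Disc1LI/LI, beside 8.22% and 4.79% of all such genes, and 0 were past 4-fold lower, beside 3.58% and 12.9%.

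**Figure D1:**
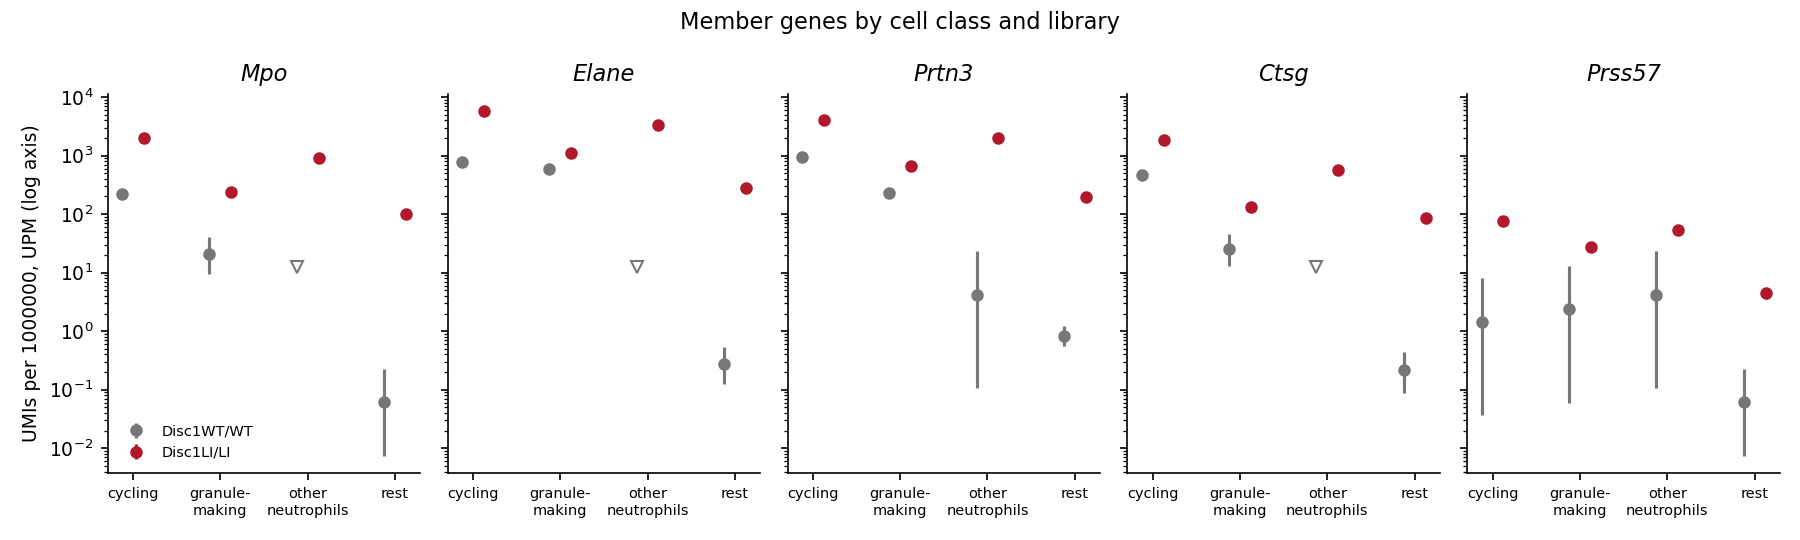
Level of each gene in UPM (log axis) by cell class, in the Disc1WT/WT and Disc1LI/LI libraries, with bars for exact 95% counting intervals and open triangles at the limit of 3 counts where no UMI was found. In Disc1LI/LI, over all cells of a class, every gene falls from cycling cells through other neutrophils and granule-making neutrophils to the rest.

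In cycling cells Disc1LI/LI levels were 9.07-fold those of Disc1WT/WT for Mpo (log2 3.18, 2.95 to 3.42), 7.50-fold for Elane, 4.37-fold for Prtn3 and 3.94-fold for Ctsg. Prss57 had 1 UMI in Disc1WT/WT cycling cells, and its ratio of 52.3 has a counting interval of 9.35 to 2070. Past 4-fold higher were 4 of the 5 genes, beside 1.73% of all 10918 genes with at least 10 UMIs, and 0 were past 4-fold lower, beside 7.84%. Nothing is read from these counts because the classes helped choose the genes. The summed level was 2406 UPM in Disc1WT/WT and 13848 in Disc1LI/LI, a log2 ratio of 2.52 (2.45 to 2.60). Much of this rests on the cells in which the 5 genes took at least 1% of UMIs, 2 in Disc1WT/WT and 72 in Disc1LI/LI. In the other 50 and 338 cycling cells Mpo had 17.7 and 87.7 UPM (4.96-fold, 2.74 to 10.0), Elane 302 and 455 (1.51-fold, 1.30 to 1.76), Prtn3 257 and 676 (2.63-fold, 2.24 to 3.10) and Ctsg 203 and 311 (1.53-fold, 1.28 to 1.85). Their sum was 1.96-fold (1.79 to 2.16), and Prss57, with 1 and 14 UMIs, had a ratio of 1.88 (0.286 to 79.5).

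The cycling cells of the libraries were not alike in other markers. The 10 microglia markers together reached 1% of UMIs in 31 of 52 Disc1WT/WT cycling cells and in 11 of 410 Disc1LI/LI cycling cells, a split chosen after the data were seen. These cells held 9 UMIs of the 5 genes (27.7 UPM) in Disc1WT/WT and 14 (142 UPM) in Disc1LI/LI. The 14 were in 6 cells. All 9 in Disc1WT/WT came from 1 cell, which also held 428 UMIs of Prss34 and 96 of Mcpt8, basophil proteases. Among the 21 and 399 cycling cells below that mark, with medians of 16111 and 15025 UMIs, the ratios were smaller: Mpo 411 and 2021 UPM (4.92-fold), Elane 1461 and 5903 (4.04-fold), Prtn3 1768 and 4163 (2.35-fold) and Ctsg 868 and 1882 (2.17-fold). Prss57 had 0 UMIs in those 21 cells and 76.6 UPM in the 399, at least 9.39-fold higher by a floor of 3 counts. The summed log2 ratio was 1.64 (1.57 to 1.71) there.

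The share of cells with a UMI depends on depth and on free transcripts, so it was set beside microglia marker-positive cells with under 1% of UMIs from them. Unthinned, Prtn3 was found in 10 of 52 Disc1WT/WT cycling cells (19.2%) and in 312 of 410 in Disc1LI/LI (76.1%), Elane in 9 (17.3%) and 274 (66.8%), Ctsg in 8 (15.4%) and 224 (54.6%), and Mpo in 6 (11.5%) and 149 (36.3%). Median depth was 11230 and 14921.5 UMIs, against 4256 and 3849.5 in the microglia marker-positive cells, so these shares cannot be set against that background directly.

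With every cell thinned to 1000 UMIs, Prtn3 was in 7.69% (2.14 to 18.5) of Disc1WT/WT and 42.6% (37.8 to 47.6) of Disc1LI/LI cycling cells, where microglia marker-positive cells gave 0.0309% and 3.06%. Elane was in 11.5% and 35.8%, with a background of 0.0154% and 4.93%. Ctsg was in 5.77% and 27.5%, with a background of 0 of 6480 cells and 0.666%, and Mpo in 3.85% and 20.1%, with 0 of 6480 and 1.11%. The 4 genes were above their own library's background in both. At least 3 of the 5 genes together were in 3.85% and 21.8% of thinned cycling cells, with a background of 0% and 0.0444%. The unthinned values were 7 of 52 (13.5%, 5.59 to 25.8) and 203 of 410 (49.5%, 44.6 to 54.5), and among cells below 1% microglia markers the thinned shares were 9.52% and 22.4%.

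Single cells set much of the Disc1WT/WT values. Its pair of richest cycling cells held 85 and 56 UMIs of Mpo, 220 and 129 of Elane, 245 each of Prtn3 and 117 and 83 of Ctsg, with none of Prss57. Both also held 29 and 20 UMIs of Irf8, a factor of monocyte precursors, and 35 and 44 of the monocyte gene F13a1. In the granule-making neutrophils 368 of 369 UMIs of the 5 genes came from 1 cell, with 249 of Elane, 98 of Prtn3, 11 of Ctsg, 9 of Mpo and 1 of Prss57 next to 15 of the granulocyte factor Cebpe and 0 of Irf8. The ratio of 2.49 between the libraries in granule-making neutrophils (log2 1.32, 1.17 to 1.47) therefore rests on that cell. There 3 of the 5 genes were past 4-fold higher, beside 2.24% of 10609 genes, and 0 lower, beside 9.79%. Without the 3 Disc1WT/WT and 132 Disc1LI/LI cells with at least 1% of UMIs from the 5 genes, 1 UMI was left in Disc1WT/WT granule-making neutrophils.

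Those 132 cells, 1.69% of Disc1LI/LI, held 92.3% of all UMIs of the 5 genes in that library, and in Disc1WT/WT 3 cells held 74.3%. The mark of 1% was set after the data were seen and serves as a description. In Disc1LI/LI 72 of them were cycling cells, 25 granule-making neutrophils, 24 other neutrophils and 11 in the rest, and 115 of the 132 had at least 3 of the cycling genes whatever their class. All 5 genes were found in 105 and 4 in the other 27. The genes took a median of 4.76% of a cell's UMIs and at most 9.24%. Near the mark lay 10 cells at 0.8% to 1% and 13 over the same ratio above it.

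**Figure D2:**
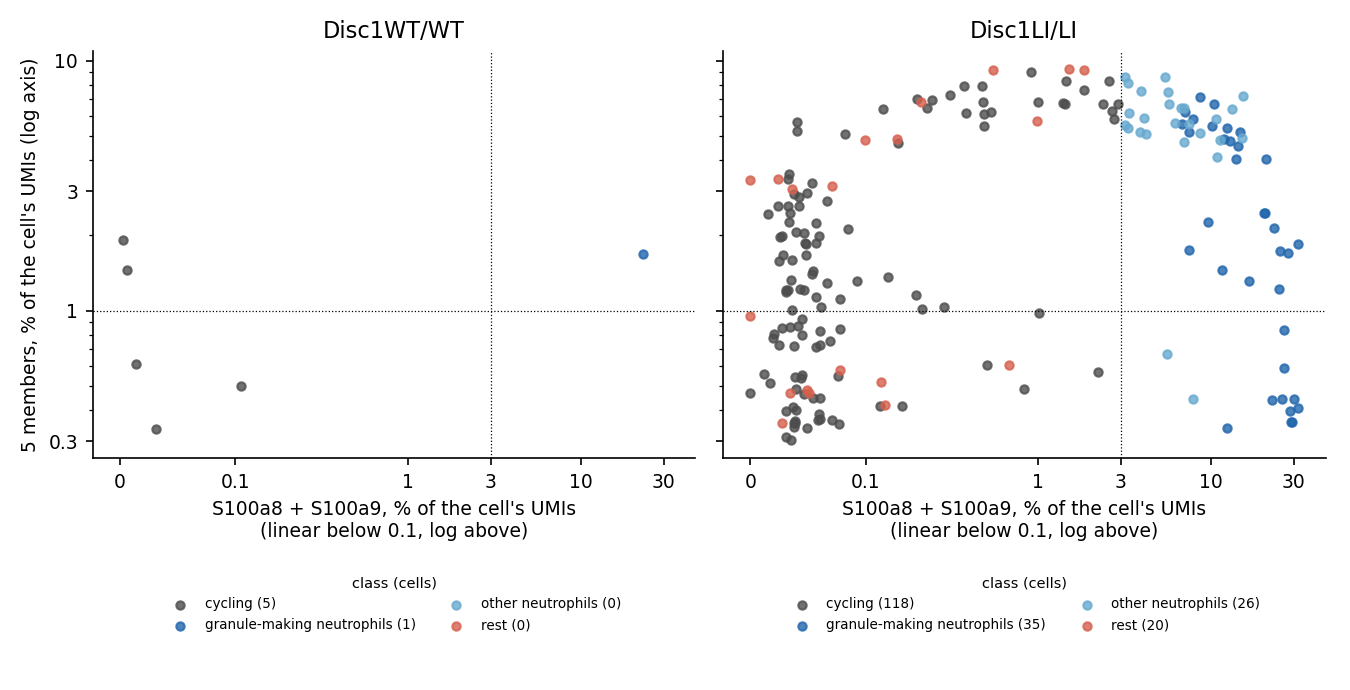
Each point is a cell with at least 0.3% of UMIs from the 5 genes, by its percent of UMIs from S100a8 and S100a9 (horizontal) and from the 5 genes (vertical), colored by class, for both libraries. Dotted lines mark 3% for neutrophils and 1% for rich cells, and the Disc1LI/LI points run across the 3% line up to 9.24%.

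Elane averaged 20100 UPM in the 132 rich cells and 126 in all other Disc1LI/LI cells, Prtn3 12583 and 133, Mpo 6217 and 20.6, Ctsg 4623 and 47.7, and Prss57 296 and 4.99. As shares of the group that is 45.9%, 28.7%, 14.2%, 10.6% and 0.675%. Here the 5 genes define the cells, so the 5 of 5 past 4-fold, beside 4.35% of 13765 genes (14.4% lower), says nothing beyond the rule. Rich cells were deep, with a median of 31271.5 UMIs, and 125 of the 132 were among the deepest 5% of the library, above 16187.2 UMIs. No doublet caller was run and none were removed, and the part of doublets in these cells was not tested. At least 5 microglia markers were detected in 25 of them, and the 10 markers together had a median of 248 UPM in rich cells against 38581 in microglia marker-positive cells.

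In the Disc1LI/LI microglia marker-positive cells outside the rich ones, which should lack these genes, Elane was found in 424 of 2272 cells (18.7%), Prtn3 in 10.5%, Mpo in 4.58%, Ctsg in 2.86% and Prss57 in 0.220%, at a median depth of 3849.5 UMIs. In the 6587 Disc1WT/WT cells of that kind, with a median of 4256 UMIs, the shares were 0.106%, 0.228%, 0.0304%, 0.0607% and 0.0304%. Levels in the Disc1LI/LI cells were 51.9 UPM for Elane, 34.0 for Prtn3, 13.6 for Mpo, 11.6 for Ctsg and 0.494 for Prss57. Per UMI of Elane they held 0.655 of Prtn3 (0.570 to 0.752), 0.263 of Mpo (0.216 to 0.318) and 0.223 of Ctsg (0.181 to 0.273), and the whole library held 0.654, 0.30 and 0.24. The ratios of the 4 genes there were near those of the whole library, where rich cells held 92.3% of the UMIs of the 5 genes. These levels served as background for the classes that follow, and the source of these UMIs was not tested.

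Against that background the neutrophils outside the rich cells had Mpo and Ctsg near or below it, and Elane, Prtn3 and Prss57 above it. In 1967 other neutrophils of Disc1LI/LI Elane was at 82.4 UPM, against 3343 with the 24 rich cells. It was found, unthinned, in 16.5% of these cells. Their median depth was 2743 UMIs, against 3849.5 in the microglia marker-positive cells, so the shares cannot be compared directly. In these other neutrophils Mpo was at 0.733 times the background level (0.535 to 0.995) and Ctsg at 0.659. Prtn3 was at 1.45 (1.24 to 1.69), Elane at 1.59 (1.40 to 1.80) and Prss57 at 3.21 (1.0 to 12). The second place of other neutrophils in the order of classes therefore rested on 24 of 1991 cells. In 1606 granule-making neutrophils Mpo was at 0.892 times background (0.708 to 1.13) and Ctsg at 1.15 (0.909 to 1.47). Elane was at 2.35 (2.13 to 2.60) and Prtn3 at 2.66 (2.36 to 3.01) there, while Prss57 was at 25.8 (10.8 to 80.4). Their median depth was 7003 UMIs. Counted in UMIs, Mpo had 168 in these 1606 cells and 138 in the 2272 background cells, and Ctsg 184 and 117. All these ratios are per UMI, and the part of depth in them was not tested.

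Prss57 stood apart from the other 4 along the secondary granule program of the same neutrophils. With cells ordered by the percent of UMIs from Ngp, Camp and Ltf, Prss57 had 1.46 UPM under 0.1% (1198 cells), 2.17 at 0.1% to 0.3%, 1.34 at 0.3% to 1%, 1.07 at 1% to 3%, 3.55 at 3% to 10% and 23.5 (20.0 to 27.6) at 10% or more (539 cells). The last value came from 155 UMIs spread over 104 cells, with at most 7 in a cell. Median depth rose from 2440 to 10015 UMIs between these ends, and thinned to 1000 UMIs the share of cells with Prss57 was 0.0836% (0.00212 to 0.465) and 1.30% (0.524 to 2.66). Between granule-making and other neutrophils it was the single gene of the 5 past 4-fold higher, beside 4.22% of 11115 genes, and 0 were lower, beside 4.5%.

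Per UMI, Mpo showed no such rise, with 14 UPM in the lowest bin and 12.5 (9.91 to 15.5) in the highest, and Ctsg had 6.72 and 7.14. The part of the rise in depth in these levels was not tested. Elane went from 99.3 to 61.0 in the 1% to 3% bin and to 158 (148 to 168) in the highest, and Prtn3 from 51.4 to 42.8 and 123 (115 to 132). Thinned, Elane was found in 6.1% of cells in the lowest bin and 7.98% in the highest, and Prtn3 in 3.34% and 5.94%. In the highest bin the granulocyte factor Cebpe (543 against 14.3), the granule lectin Fcnb (493 against 13.4) and the promyelocyte membrane gene Ms4a3 (108 against 5.55 UPM) were high as well. The peak of Ctsg at 1% to 3%, 42.8 UPM, came from 42 of 80 UMIs in 1 cell that also held 1002 UMIs of Prss34 and 186 of Mcpt8, basophil proteases. It was 20.5 UPM without that cell.

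**Figure D3:**
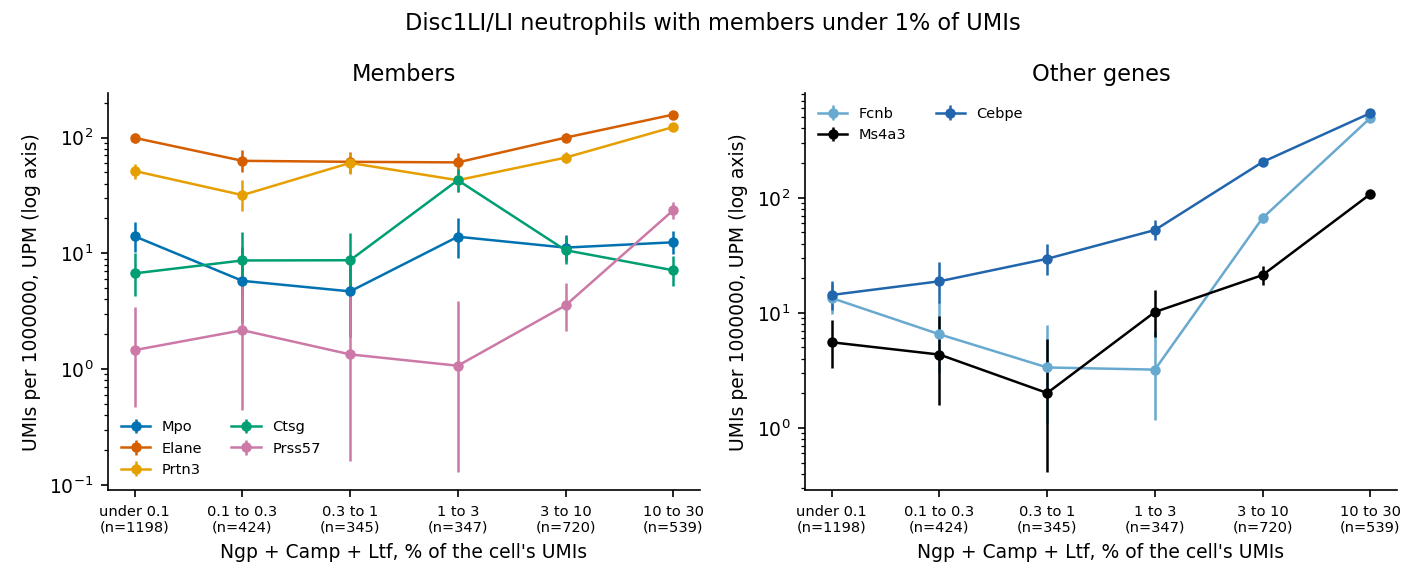
Levels in UPM (log axis) in Disc1LI/LI neutrophils with under 1% of UMIs from the 5 genes, by the percent of UMIs from Ngp, Camp and Ltf, with exact 95% counting intervals. Prss57 is between 1.07 and 3.55 in the first 5 bins and 23.5 in the last, while Mpo ends at 12.5 after starting at 14.

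Within the 132 rich cells the proportions of the genes shifted with S100a8 and S100a9, which rise as neutrophils form. Elane was at 10708 UPM in the 60 cells under 0.3% S100a8 and S100a9, 33223 in the 23 at 0.3% to 3%, 32970 in the 12 at 3% to 6%, 24529 in the 20 at 6% to 12% and 19421 in the 17 above. Prtn3 was at 8221, 18888, 18711, 14250 and 12375 in the same bins, and Mpo at 4364, 10388, 9396, 6436 and 3943. All 3 were highest in the middle bins and had their lowest or next to lowest level in the first. Bins of 12 and 17 cells are thin.

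Ctsg was lowest at the upper end, with 3824, 8273, 6025, 4169 and 1460 UPM, and its ratio to Mpo went from 0.876 (0.848 to 0.905) to 0.370 (0.338 to 0.406). Prss57 was lowest in the first bin, with 123, 508, 504, 371 and 362 UPM, and its ratio to Mpo went from 0.0283 (0.0246 to 0.0323) to 0.0917 (0.0774 to 0.108). Mpo itself went from 0.408 to 0.203 UMIs per UMI of Elane. The counting intervals of the first and last bin do not overlap for these 3 ratios, and cells are not replicates.

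Other genes of the rich cells followed the same axis. The lineage factor Irf8 went from 281 UPM in the first bin to 45.5 in the second and 9.15 in the last, F13a1 from 512 to 51.2 and 11.4, and the stem and progenitor surface gene Cd34 from 68.1 to 2.85 and 0. Cebpe went the other way, from 69.8 to 343 and 680, as did Fcnb (46.4, 485 and 2277) and the secondary granule peptide Camp (98.3, 275 and 35501). Serglycin (Srgn), the proteoglycan that holds the proteases in the granule, went with the members, at 2360, 6376 and 2929. The elastase inhibitor Serpinb1a was at 374, 1251 and 1924, and the repressor Gfi1 at 43.0, 145 and 98.4.

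**Figure D4:**
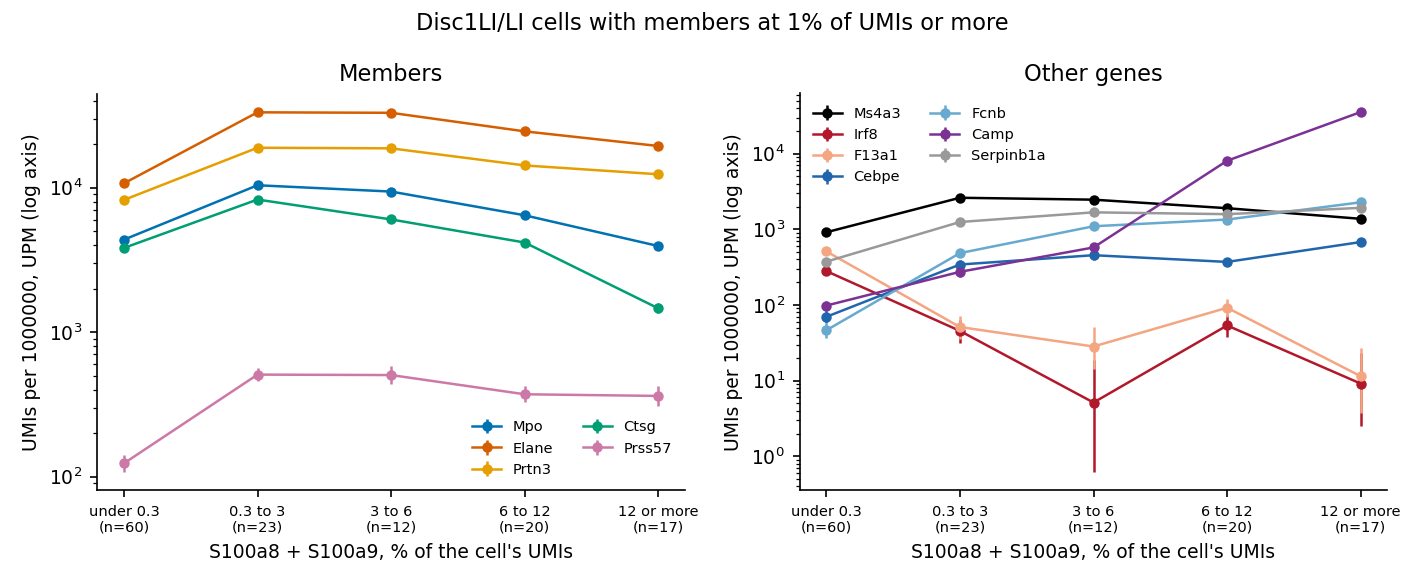
Levels in UPM (log axis) in the 132 Disc1LI/LI cells with at least 1% of UMIs from the 5 genes, by percent of UMIs from S100a8 and S100a9, with exact 95% counting intervals. Ctsg falls to 1460 in the last bin while Prss57 is at 362 there, and Irf8 and Cebpe run in opposite directions.

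The cycling cells of Disc1LI/LI showed a change of order among the genes as their total rose. Where the 5 genes took 0.03% to 0.1% of a cell's UMIs (79 cells), Prtn3 led with 296 UPM, followed by Elane at 152, Ctsg at 83.8, Mpo at 14.1 and Prss57 at 0.882. At 0.3% to 1% (46 cells) Prtn3 had 2357, Elane 1682, Ctsg 1207 and Mpo 383. Above 3% (30 cells) Elane led with 29186, ahead of Prtn3 at 16527, Mpo at 9581, Ctsg at 7767 and Prss57 at 439. Bins were cut on the sum of these same genes, so a gene with many UMIs weighs most in the high bins. The order within a bin is therefore not independent of the cut and is a description only.

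The ratio of Elane to Prtn3 was 0.512 (0.423 to 0.617) at 0.03% to 0.1%, 0.641 at 0.1% to 0.3%, 0.713 at 0.3% to 1%, 0.984 (0.954 to 1.01) at 1% to 3% and 1.77 (1.73 to 1.80) above. Under 0.03% Elane (45.2 UPM) and Mpo (8.77 UPM) were below their levels in microglia marker-positive cells, as given above, and Mpo was at that level (14.1 UPM) at 0.03% to 0.1%, so no order is read from ratios with them there. From 0.1% to 0.3% the ratio of Mpo to Elane was 0.103 (0.0727 to 0.143), at 0.3% to 1% 0.228, at 1% to 3% 0.432 and above 3% 0.328. Ctsg to Elane was 0.667 at 0.1% to 0.3%, 0.718 (0.663 to 0.777) at 0.3% to 1% and 0.266 above 3%. Prtn3 thus exceeded Elane between 0.03% and 1%, Elane exceeded Prtn3 above 3%, and Ctsg stood highest against Elane at 0.3% to 1%. In Disc1WT/WT the pair of richest cycling cells, at 1.91% and 1.45%, had Elane below or near Prtn3, with 220 and 129 against 245 and 245. Summed over the 50 Disc1WT/WT cycling cells under 1%, Elane had 188 UMIs against 160 of Prtn3. A pair of these cells set that order, with 98 and 36 UMIs of Elane against 43 and 10 of Prtn3. Others had Prtn3 above Elane, with 39, 10, 1 and 2 UMIs of Elane against 66, 28, 7 and 4.

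In the same bins the lysozyme gene Lyz2 had 16022 UPM at 0.03% to 0.1%, 9933 at 0.3% to 1% and 470 above 3%, F13a1 had 1121, 820 and 124, and the monocyte chemokine receptor Ccr2 504, 341 and 36.8. Ms4a3 had 2.65, 187 and 2402 UPM. Irf8 was at 263, 242 and 67.7, with its highest level, 326, at 1% to 3%. Thus the cells with low totals led by Prtn3 held more Lyz2, F13a1 and Ccr2 than those above 3%. Some genes of the monocyte list were still found in cells with high totals. The cycling cell with the most UMIs of the 5 genes (7.32% of its 45818 UMIs) held 62 UMIs of Ly6c2. It held 5 of F13a1 and 0 of Irf8, beside 17 of Cebpe and 178 of Ms4a3. Of 8 monocyte genes, 1 (Plac8) was past 4-fold higher in rich than in all other Disc1LI/LI cells and 3 were lower, as given below. All genes gave 4.35% and 14.4%, and this comparison was not made by these bins. Median depth was 14462, 18225 and 35142.5 UMIs in these bins.

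**Figure D5:**
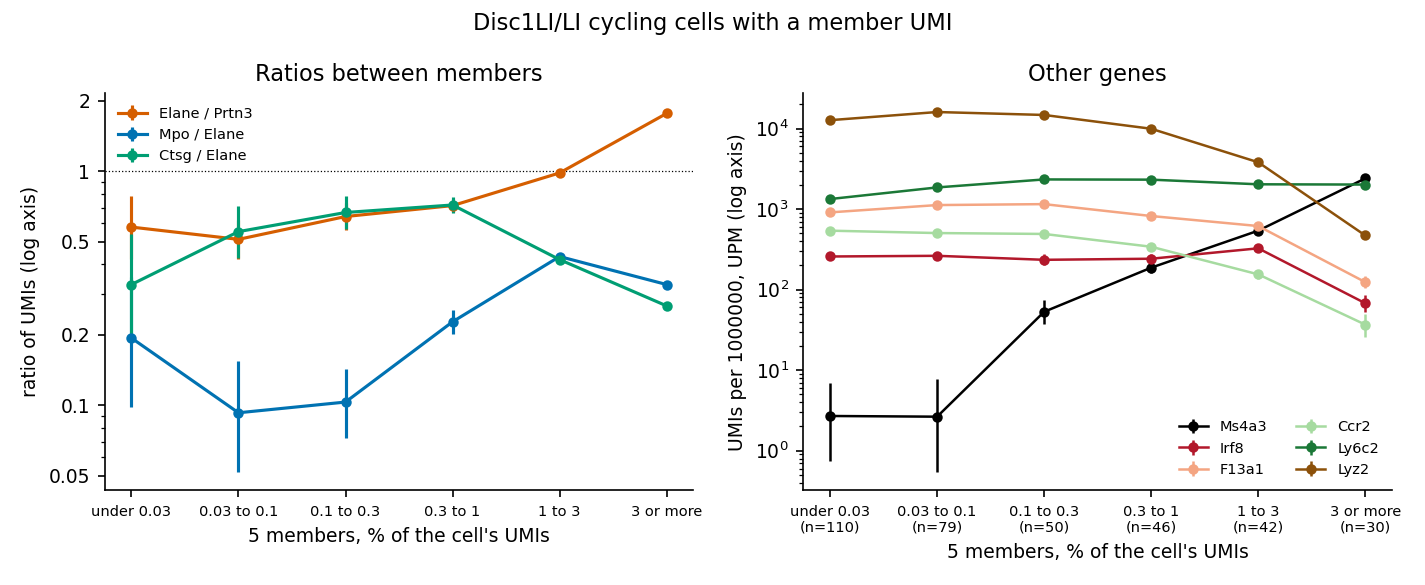
Cycling cells of Disc1LI/LI by the percent of UMIs from the 5 genes: ratios of UMIs between the genes (one panel) and levels of other genes in UPM (other panel), with exact 95% counting intervals. Elane to Prtn3 goes from 0.512 to 1.77 while Lyz2, F13a1 and Ccr2 fall in the last bin.

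Some cycling cells with Ctsg also held basophil and mast cell transcripts. Cells with at least 20 UMIs of the basophil and mast cell proteases Mcpt8, Prss34 and Cpa3, a mark set after the data were seen, numbered 2 in Disc1WT/WT and 9 in Disc1LI/LI. The Disc1WT/WT pair held 59 of the 326 cycling UMIs of Ctsg with 0 of Elane, 0 of Prtn3, 1 of Mpo and the 1 cycling UMI of Prss57. In the 9 Disc1LI/LI cells Ctsg was found in all 9 (3884 UPM), Mpo in 8 (3253), Prtn3 in 6 (1412), Elane in 4 (4681) and Prss57 in 4 (114). At least 4 of the 5 genes were found in 3 of these 9, and 2 of the 9 were rich cells.

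Genes known for the making of the granule were compared between the 132 rich cells and all other Disc1LI/LI cells. Over all 13765 genes with at least 10 UMIs, 4.35% were past 4-fold higher in rich cells and 14.4% lower. These shares stand beside every list count of this comparison, and counts near them are not read as results. Of 8 genes that help fold, load or mature the enzymes, 1 was past 4-fold higher and 0 lower, with a median log2 ratio of 0.80 against -0.13 over all genes. The heme synthesis enzyme Alas1 was at 280 and 42.4 UPM (6.59-fold), the chaperone Calr, which binds the Mpo precursor, at 720 and 196 (3.67-fold), and Srgn at 3931 and 1194 (3.29-fold). Ctsc, the peptidase that activates elastase, proteinase 3 and cathepsin G, was lower in rich cells, at 146 and 333 UPM.

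Among 3 inhibitors of the proteases 0 passed 4-fold, beside 4.35% of all genes higher and 14.4% lower. Serpinb1a was at 1027 and 275 UPM, Slpi at 567 and 930 and Serpinb6a at 7.05 and 17.4. Of 7 other azurophil contents with enough UMIs, 0 were higher and 2 lower, Lyz1 and Lyz2 (2264 and 11950 UPM), and the granule membrane gene Cd63 was at 937 and 285. Bpi had 1 UMI in rich cells and 0 elsewhere. Of 9 transcription factors of the lineage 2 were higher, Gfi1 at 86.1 and 3.13 UPM (27.5-fold) and Myb at 168 and 9.06 (18.5-fold), and 0 were lower. Cebpe was at 272 and 115, Cebpa at 51.4 and 46.4, Spi1 at 426 and 511, and Cebpb at 592 and 2083.

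Of 7 proteases and peroxidases related to the members, those with enough UMIs, 0 were higher and 3 lower, and Lpo and Cfd, next to Mpo and Elane on the chromosome, had 0 UMIs in all kept Disc1LI/LI cells. Mcpt8, next to Ctsg, was at 88.9 UPM in rich cells and 93.5 elsewhere. Of 6 progenitor genes Ms4a3 (1581 and 27.2, 58.2-fold) and Kit (26.4 and 3.04, 8.69-fold) were higher and 1 was lower. Secondary and tertiary granule genes were lower in 6 of 10 and higher in 1, Fcnb, beside 14.4% and 4.35% of all genes. All 10 microglia markers were lower, as were 9 of 12 neutrophil, 3 of 8 monocyte, 6 of 8 erythroid, 6 of 8 B lineage and 3 of 6 T and NK cell markers. Higher were the monocyte gene Plac8 (4.17-fold), the NK cell granule gene Nkg7 (24.8-fold) and the eosinophil granule gene Prg3 (11.5-fold), while 1 of 4 eosinophil markers was lower. None of 6 mast cell and basophil genes, 4 sex-linked genes and 7 cycling genes passed 4-fold either way.

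Across single cells the genes with the most similar pattern were ranked by the lower of the Pearson correlations in the libraries with the summed members, on log-scaled UMIs, over 10490 genes found in at least 50 cells of each. Pclaf, a replication factor, led with r of 0.38 in Disc1WT/WT and 0.41 in Disc1LI/LI, and Spc24, Hist1h1b, Birc5 and Plac8 followed. In Disc1LI/LI alone Ms4a3 led with r of 0.63 over the 7817 cells, ahead of Dmkn (0.50) and Dut (0.49). The cells share a library and differ in depth, so these are descriptions.

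Summed levels of these genes on either side of the class thresholds were near each other for 2 of the 3 thresholds, with a few rich cells on each side. Just outside the 3% mark for S100a8 and S100a9, 13 Disc1LI/LI cells (4 of them rich) held 51982 UPM of the 5 genes. The 20 just inside (5 of them rich) held 45883. Cells with 2 cycling genes (74 cells, 3 of them rich) had 9969 UPM and those with 3 (35 cells, 3 of them rich) 9912. The third differed, since just under and over 1% of Ngp, Camp and Ltf 59 cells had 78.1 and 57 cells 15142 UPM, and 3 rich cells were among the latter. The overlapping genes Fstl3 (Prss57), Gm11505 (Mpo) and Plppr3 (Prtn3) lie on the opposite strand and had 6, 11 and 104 UMIs in rich cells, against 1174 of Prss57, 24687 of Mpo and 49968 of Prtn3.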

How the data were processed

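The authors aligned reads to mm10 and counted unique molecular identifiers (UMIs) for every gene in every barcode (Cell Ranger 6.1.2, STAR), and the deposited values are these raw counts. Here barcodes with at least 200 genes and at most 10% of UMIs from mitochondrial genes were kept, UMIs were summed over the cells of a class and library, and sums were divided by the summed UMIs and multiplied by 1000000. Depth was 33601957 UMIs in 7038 Disc1WT/WT and 47731571 in 7834 Disc1LI/LI barcodes. Intervals (95%) are exact Poisson for levels, Clopper-Pearson for shares and conditional binomial for ratios. Of these only the ratio intervals were tested, on simulated Poisson counts. PCR copies share a UMI, and the intervals hold counting error only. A gene with 0 UMIs was compared through a floor of 3 counts. Cells were thinned to 1000 UMIs for shares, leaving out shallower cells. Genes with at least 10 UMIs entered counts past 4-fold. The 5 genes, the 18 gene lists, the classes and the named genes (members, genes of largest and smallest ratio in a list, and the 20 most alike by correlation) were chosen with earlier results of these data known. Other named genes and the marks of 1% for rich cells and microglia markers were chosen after their values were seen. Other scalings used edgeR 4.0.16 and DESeq2 1.42.0 in R 4.3.3, only for size factors. Python 3.11.15, numpy 2.4.6, scipy 1.17.1 and pandas 2.3.3 were used. The labels name 2 droplet chips without saying which held each library.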

Additional observations from a re-analysis of the deposited data

Results flagged for a closer look

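A signal was present in barcodes outside the comparisons. The 17 Disc1LI/LI barcodes left out for few genes or many mitochondrial UMIs held 9 UMIs of the 5 genes among 41737, or 216 per 1000000 UMIs (UPM). The 6 such Disc1WT/WT barcodes held 0 of 10199, which allows up to 294 UPM, so the libraries could not be told apart there.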

How the results depend on the processing

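With 1 library per genotype no library could be left out. No paired analysis was possible because a genotype has a single library. The summed log2 ratio in cycling cells, 2.52, was 2.24 and 2.90 with S100a8 and S100a9 at 1% and 10%. It was 2.64 and 2.34 with 2 and 4 cycling genes and 2.31 with cycling cells taken before neutrophils. Without the deepest 5% of cells it was 6.78, with a wide counting interval of 4.30 to 12.1. Thinned it was 2.89, with TMM and DESeq2 scaling 2.99 and 3.01 and as a mean over cells 2.83. In granule-making neutrophils 1.32 became 0.69 with S100a8 and S100a9 at 10%. With Ngp, Camp and Ltf at 3% it was -0.032 (-0.181 to 0.122), a reversal of sign whose counting interval spans 0. With cycling cells first it was 7.16 (4.68 to 12.5), a wide counting interval. Thinned it was 1.75, with TMM and DESeq2 scaling 1.88 and 1.86 and as a mean over cells 1.10. It had no value without the deepest 5% of cells, where Disc1WT/WT had 0 UMIs. Alternatives chosen after seeing the data left out rich cells (0.97 and 6.67), cells with 5 microglia markers (7.29 and 0.082) or cells with 1% of UMIs from them (1.64 and 0.84). The share of the genes' UMIs in Disc1WT/WT cycling cells, 79.9%, was 97.6% with cycling cells first, 2.86% without the deepest 5%, 74.3% thinned and 90.7% without rich cells. In Disc1LI/LI, 51.0% was 39.3% and 74.4% with S100a8 and S100a9 at 1% and 10%, 55.2% and 49.4% with 2 and 4 cycling genes, 87.9% with cycling cells first, 28.0% without the deepest 5%, 44.1% thinned and 48.8% without rich cells. The share of cycling cells with at least 3 genes was 0%, 3.85%, 0% and 28.6% in Disc1WT/WT without the deepest 5%, thinned, without 5-marker cells and without 1% cells, and 25.9% and 21.8% in Disc1LI/LI without the deepest 5% and thinned. Minimum UMIs of 1 and 50 moved the percent of all genes past 4-fold higher to 27.5 and 5.26 for cycling over rest in Disc1WT/WT and to 1.06 (50) for cycling cells of Disc1LI/LI over Disc1WT/WT, and that lower to 13 and 4.03 for the latter, 27.1 and 3.78 for granule-making neutrophils between libraries and 10.5 (1) for granule-making over other neutrophils. Apart from what each alternative's construction shows, the cause was not tested. The Disc1WT/WT values rest on 52 cycling cells, 116 neutrophils and 2084 UMIs of the genes.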
